A study of Mus musculus with 3 samples.

Results

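The positions described here are the crosslink positions that the authors labelled as 5′ untranslated region (5′ UTR) in their deposited list from mouse thymocytes. The crosslinked complexes were precipitated with an antibody named after both ZFP36L1 and ZFP36L2. The only criterion for membership was the authors' segment label, and each position was weighted by the size of its deposited count. There were 2957 such positions among 462392 listed positions, with a summed count of 5205 out of 814493. They carried the names of 1440 genes, all labelled protein-coding, or 11.5% of the 12541 protein-coding genes that occur anywhere in the list.

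The study applied individual-nucleotide resolution crosslinking and immunoprecipitation (iCLIP) to total naive thymocytes of strain C57BL/6JBabr. Intact cells received 300 mJ/cm2 of ultraviolet light, complexes were precipitated with an antibody named Brf1/2, after older names of ZFP36L1 and ZFP36L2, and cDNA libraries were sequenced as single 100 nt reads. There were 2 WT libraries, from independent experiments, and 1 DCKO library, from mice with conditional deletion of both Zfp36l1 and Zfp36l2. The labels give neither the age of the mice nor the driver of the conditional deletion, and no treatment beyond the irradiation. The deposited list has 1 value per position and no column for a library, and which libraries entered it is not stated. WT and DCKO could therefore not be compared, and the spread between libraries is unknown for every value.

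ZFP36L1 and its relatives are zinc finger proteins that bind AU-rich elements, best known in 3′ UTRs, and recruit the machinery that removes the poly(A) tail. In thymocytes, ZFP36L1 and ZFP36L2 are known for restraining cell cycle progress while T cell receptor genes are rearranged. The 5′ UTR is the stretch between the transcript start and the start codon, which the small ribosomal subunit scans, and it is usually shorter and richer in G and C than the 3′ UTR. In iCLIP, reverse transcription tends to stop at the crosslinked base, so that the end of a cDNA marks the contact to the nucleotide.

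The sequence around the strongest positions is shown first, because the results turn on it. Each line gives 30 nt of the transcribed strand from GRCm38, 5′ to 3′, written with T for U, in which the listed position is base 9. The first 4 lines are leading positions whose printed window holds TATTTA, the hexamer at the heart of AU-rich elements, and the capitals mark it. A position of Dhrs3 with 5 counts, tied with that of Krba1, is left out. Its hexamer began 9 nt upstream of the position, before the printed window.
Map2k5: cttctccccatcttcttgctcccTATTTAt
Polr2a: atcccggttactTATTTAttcgttacccct
Rbbp6: cgcttgtggttgggggggTATTTAatctga
Krba1: gatttTATTTAatttTATTTATTTATTTAt

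Those windows span chr9:63377363-63377392 on the minus strand for Map2k5, chr11:69758513-69758542 on the minus strand for Polr2a, chr7:122970804-122970833 on the plus strand for Rbbp6 and chr6:48402181-48402210 on the plus strand for Krba1. All coordinates here are 1 lower than those of GENCODE and genome browsers, and they include both ends. The first 3 windows lie in exon 1 and the last in exon 2 of an annotated transcript with a 5′ UTR there. The next 5 lines show the leading positions of genes whose counts lay in runs of T, and the capitals mark runs of at least 6.
Mbnl1: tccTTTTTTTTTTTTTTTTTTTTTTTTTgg
Dhrs3: TTTTTTTTTTTTTTTTcgtccctggccttg
Nabp1: ttttggTTTTTTgTTTTTTTTgaacttgtg
Kmt2d: TTTTTTTTTTTTTTTTaaacccccggggga
Cdkn1b: atttcaTTTTTTTTTTTccggagagaggcg

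These 5 windows lie in exon 1 of a transcript of their gene. They span chr3:60529545-60529574 (plus strand) for Mbnl1, chr4:144893080-144893109 (plus) for Dhrs3, chr1:51478122-51478151 (minus) for Nabp1, chr15:98871170-98871199 (minus) for Kmt2d and chr6:134920858-134920887 (plus) for Cdkn1b. The last 4 lines are leading positions of further genes among the 10 highest, whose printed windows hold neither pattern, shown for contrast. Capitals mark ATTTA, the shorter pentamer, where it is present.
Bcl11b: agcagttttataATTTAttttagccttttc
Satb1: cgtttatttttgcccttcccccgcctagcg
Hist1h2ab: tatatattcttttcctttctctgctttgcc
Hist1h2bg: atttcctgttttatctttctctttgttgct

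They span chr12:108003396-108003425 (minus strand) for Bcl11b, chr17:51811968-51811997 (minus) for Satb1, chr13:23751080-23751109 (plus) for Hist1h2ab and chr13:23571393-23571422 (plus) for Hist1h2bg. All 4 windows hold short stretches of T.

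The 5′ UTR label was checked against GENCODE vM21, an annotation of the same genome build. Of the 2957 positions, 2812 (95.1%, 95% Wilson interval 94.3 to 95.8) lay in an annotated 5′ UTR exon of the named gene on the same strand. A further 66 lay in an exon of a transcript with no 5′ UTR there, 37 outside the annotated gene, 34 had no gene of that name on their strand, 4 lay in an intron and 4 in coding sequence. The label therefore held for nearly all members. Of the exceptions, 13 of the 37 positions outside a gene were those of Hist1h2ab, and only 2 of the 13 positions of Luc7l2 lay in an annotated 5′ UTR exon. Of 2957 windows, 1 matched ribosomal RNA of the reference, at Gm20594 with 2 counts, a name chosen because it was the match.

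Most positions rested on very few counts. The count was 1 at 1205 positions, 2 at 1581 and 3 or more at 171 (5.78%, 95% Wilson interval 5.0 to 6.68), of which 10 reached 10 and the highest was 21. In the whole list 5.45% of positions had a count of 3 or more. Counts of 2 outnumbered counts of 1 in the 5′ UTR, and also at coding (19194 against 13960) and 3′ UTR positions (22502 against 17145). At intron positions they did not (141467 against 163825). Whether values of several libraries were combined is not stated in the labels. A position with an authors' false discovery rate (FDR) below 0.05 is called a site here. Of the 5′ UTR positions 623 were sites, 21.1% (95% Wilson interval 19.6 to 22.6), against 30.7% of all listed positions. These intervals, and all below, cover counting error only and treat counts as independent, which positions of the same gene are not.

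The 5′ UTR took a small part of the listed signal. It held 0.639% of all counts (95% Wilson interval 0.622 to 0.657), whereas positions labelled coding held 7.21%, 3′ UTR 10.4% and intron 62.9%. The segments differ in length, so counts were also set per kb of annotated sequence. Over all protein-coding genes with a listed position, the 5′ UTR had 1.05 counts per kb, the coding sequence 2.39, the 3′ UTR 3.21 and introns 0.625. The 5′ UTR was thus denser than introns and below both other exonic segments. With only those positions whose label and GENCODE segment matched, the values were 0.988, 1.38, 3.13 and 0.585 counts per kb. The coding value changed most, as only 58.7% of positions with the coding label fell inside GENCODE coding sequence of the named gene.

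Within the 1440 genes named by a 5′ UTR position, the 5′ UTR had 5.86 counts per kb, the coding sequence 5.41, the 3′ UTR 8.97 and introns 2.12. Membership itself raises the first of these values, since genes without a 5′ UTR position are left out, and the order against coding sequence was the opposite over all protein-coding genes. In the same genes 19.4% of coding, 41.6% of 3′ UTR and 31.2% of intron positions were sites, so the share in the 5′ UTR (21.1%) lay between those of coding sequence and intron. The mean count per position was 1.76 in the 5′ UTR, 1.71 in coding sequence, 2.20 in the 3′ UTR and 1.61 in introns.

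Genes with a 5′ UTR position usually had other listed positions as well. Of the 1440 genes, 1291 had intron positions, 1109 coding positions and 977 3′ UTR positions. There were 169 genes with no other exonic position and 61 with no other listed position at all. A 3′ UTR site was present in 516 of the 1440 genes (35.8%), and in 17.7% of all protein-coding genes listed. Read the other way, those 516 genes were 23.2% of the 2222 genes with a 3′ UTR site. Sites of both kinds occurred in 63 genes, out of 142 genes with a 5′ UTR site (1.13% of the 12541). Across the 1440 genes the summed 5′ UTR count had a Spearman coefficient of 0.239 with the coding count, 0.181 with the 3′ UTR count and 0.193 with the intron count. These coefficients describe genes of a single list, which share its depth and are not independent.

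Along the 5′ UTR the positions were spread much like the sequence itself. The median distance from the transcript start was 124 nt (quartiles 43 and 288), and over all bases of the same 5′ UTRs, weighted by each gene's number of positions, it was 119 nt. The median distance to the start codon was 136 nt against 160 nt for all bases. In the first 50 nt of the transcript lay 27.5% of positions and 27% of bases, and within 30 nt of the start codon 11.6% of positions (95% Wilson interval 10.4 to 12.8) and 11.1% of bases. Of the sites, 3.94% (95% Wilson interval 2.64 to 5.84) lay within those 30 nt. Sites came from 142 genes, and the share of bases was not computed for the 5′ UTRs of these genes alone. First exons held 89.8% of positions and 87.7% of bases.

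**Figure D1:**
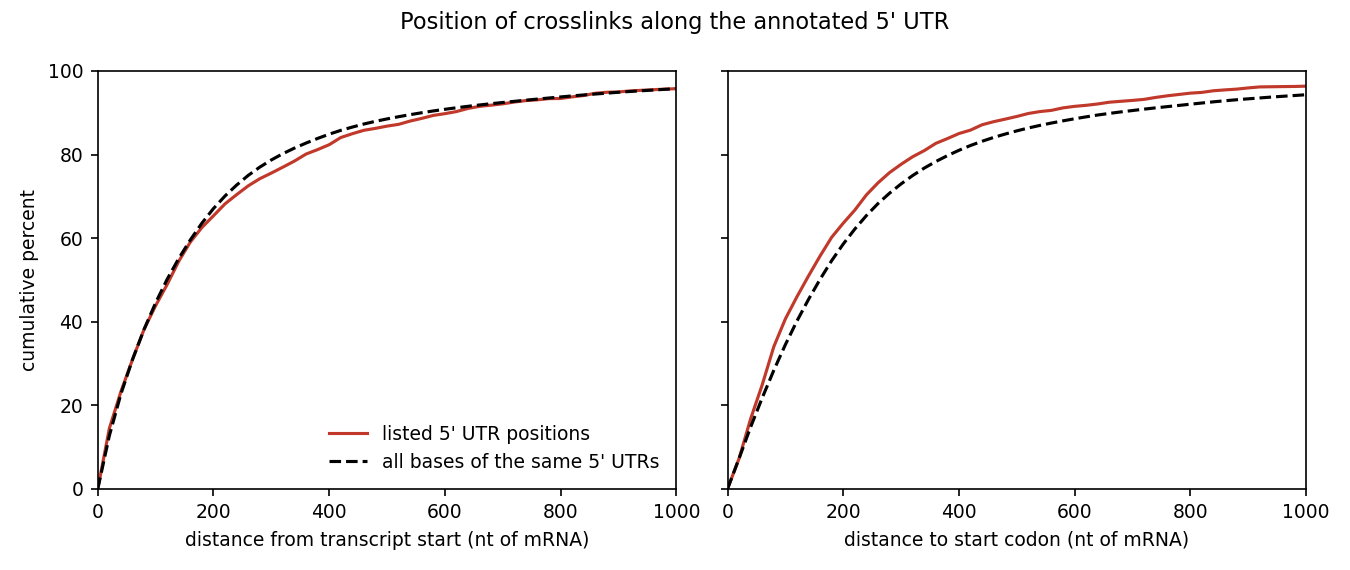
Cumulative percent of the listed 5′ UTR positions (red) and of all bases of the same 5′ UTRs (black, dashed) by distance from the transcript start (left) and to the start codon (right), in nt of mRNA up to 1000. The curves nearly coincide on the left, with medians of 124 and 119 nt, and on the right the positions lie closer to the start codon, with medians of 136 and 160 nt.

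The annotated transcript start marked an edge in the signal. With all listed counts, whatever their label, placed around the start of 1 transcript for each of 12113 genes, the density was 0.162 to 0.365 counts per kb in the bins from 300 to 50 nt upstream. It was 0.938 in the 50 nt just upstream, where 85 of 568 counts were those of Hist1h2ab. Downstream it was 1.48, 1.61 and 1.73 in the first 3 bins of 50 nt, and 1.14 to 1.44 in the next 7. No comparable step was seen at the other landmarks. The 50 nt before the start codon had 1.88 counts per kb and the 50 nt after it 1.54, and the 50 nt on either side of the first exon's end had 1.71 and 1.46.

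**Figure D2:**
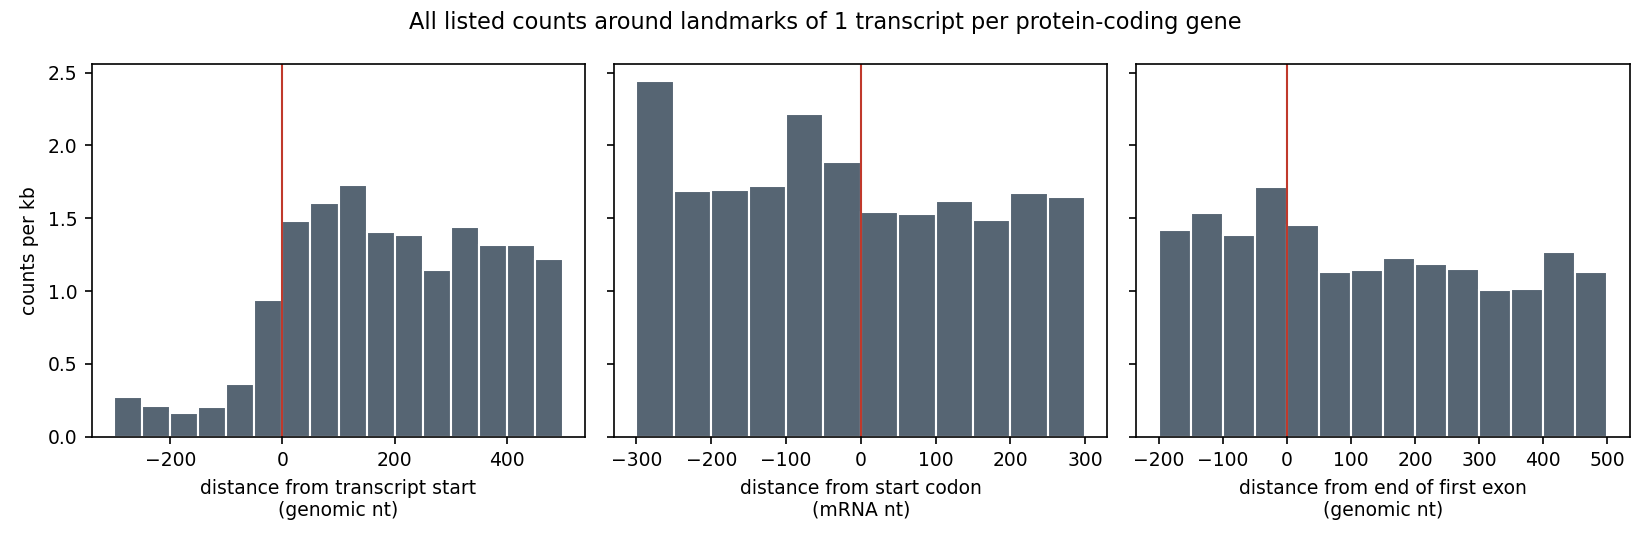
Counts per kb in bins of 50 nt around the transcript start (left), the start codon (middle) and the end of the first exon (right), over all listed counts and 1 transcript per protein-coding gene; the red line is the landmark. The density rises from at most 0.365 counts per kb before the last upstream bin to 1.48 in the first bin after the transcript start.

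Many members lay in sequence that is a 5′ UTR in some transcripts and an intron in others. Of the 2812 positions in annotated 5′ UTR exons, 1374 (48.9%, 95% Wilson interval 47.0 to 50.7) also lay in an intron of another coding transcript of the gene, against 42.8% of all bases of the same 5′ UTRs. With basic transcripts only, the share was 38.5%. Of the 1374 positions 27.7% were sites (95% Wilson interval 25.4 to 30.1), and of the 1438 positions in no such intron 14.2% (12.5 to 16.1). Without Satb1 and Mbnl1, the highest 2 genes, the former share was 24.1%. Whether a read at such a position came from the mRNA or from an unspliced precursor cannot be told apart in this list.

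The sequence at the positions was rich in T. The listed base was T at 46.9% of positions (95% Wilson interval 45.1 to 48.7), C at 24.3%, G at 21.4% and A at 7.47%, and T made up 23.2% of all bases of the same 5′ UTRs. At sites the share of T was 64.0%. The trait was not particular to the 5′ UTR. In the same genes T stood at 43.6% of coding, 57.8% of 3′ UTR and 60.5% of intron positions. The matching shares of all bases were 22.1%, 31.1% and 30.9%, and at sites of these segments T stood at 58.7% to 69.6%. Within 20 nt on either side, the median share of G and C was 51.2% over positions and 39.0% over sites, and in the 3′ UTR positions of the same genes it was 34.1%. Soft-masked sequence, which the reference marks as repeats or simple sequence, held 28.1% of positions and 58.6% of sites, against 12% of 5′ UTR bases. In the same genes it held 40.5% of coding, 59.6% of 3′ UTR and 74.3% of intron sites.

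The AU-rich hexamer TATTTA was uncommon beside these positions, and runs of T were not. Windows of 41 nt centred on each position were searched on the transcribed strand only, and TATTTA, which contains ATTTA, was present at 97 positions in 38 genes, with 200 counts. That was 3.28% of positions (95% Wilson interval 2.70 to 3.99), and 1.09% of all windows of that length in the same 5′ UTRs held it. In the same genes, TATTTA was present at 4.14% of coding positions (0.562% of all windows), 14.1% of 3′ UTR positions (2.78%) and 10.1% of intron positions (2.48%). The run TTTTTT was present at 432 positions in 144 genes with 820 counts, which was 14.6% of positions (95% Wilson interval 13.4 to 15.9) against 3.57% of all 5′ UTR windows. For the 3′ UTR it was 22.6% of positions and 6.62% of windows. The pentamer ATTTA stood at 5.65% of 5′ UTR positions and 2.74% of windows, GGGG at 20.6% and 20.5%, and ATG at 24.1% and 28.2%.

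Among sites the difference between 5′ UTR and 3′ UTR was wider for the hexamer than for the T run, and against coding sequence it was not. TATTTA was present at 8.03% of 5′ UTR sites (95% Wilson interval 6.14 to 10.4) and at 26.3% of 3′ UTR sites of the same genes (25.1 to 27.4), intervals that do not overlap. TTTTTT was present at 38.0% of 5′ UTR sites (34.3 to 41.9) and at 35.8% of 3′ UTR sites (34.5 to 37.0), intervals that do overlap. Without Satb1 and Mbnl1 the 5′ UTR shares were 9.58% and 34.7%. At coding sites of the same genes TATTTA was present at 10.9% and TTTTTT at 21.3%. TATTTA windows are rarer in these 5′ UTRs (1.09%) than in the 3′ UTRs (2.78%). No share of windows was computed for sites alone. Of the 152 TATTTA copies near 5′ UTR positions, 79 began downstream of the position.

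Positions were also split by their own count. With counts of 1, 2, 3 to 4 and 5 or more, TATTTA was present at 2.91%, 3.29%, 3.42% and 11.1% of 5′ UTR positions. In the 3′ UTR of the same genes the values were 8.16%, 14.2%, 25.1% and 39.0%. The highest class held only 54 positions in the 5′ UTR, and its 95% Wilson interval ran from 5.19% to 22.2%, below the 3′ UTR interval of 35.5% to 42.6%. TTTTTT was present at 17.5%, 10.6%, 29.1% and 35.2% of 5′ UTR positions in the same 4 classes, and at 23.99%, 18.7%, 33.4% and 33.2% of 3′ UTR positions. At counts of 1 and 2 the intervals of 5′ UTR and 3′ UTR did not overlap, with the 5′ UTR lower. In the highest class its 3′ UTR share, 33.2%, lay inside the 5′ UTR interval of 23.8% to 48.5%.

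**Figure D3:**
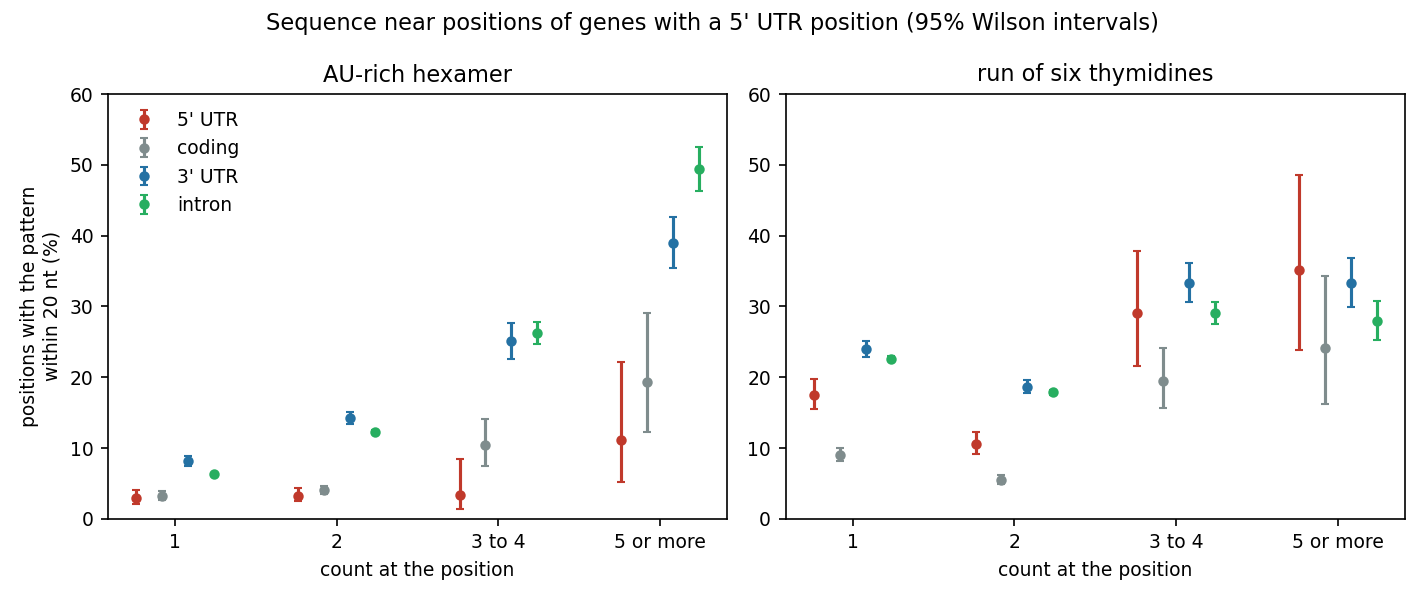
Percent of positions with the AU-rich hexamer (left) or a run of 6 T (right) within 20 nt, by the count at the position and by segment, in genes with a 5′ UTR position; bars are 95% Wilson intervals and cover counting error only. At counts of 5 or more, with Mbnl1 included, the hexamer stood at 11.1% of 5′ UTR and 39.0% of 3′ UTR positions, and the T run at 35.2% and 33.2%.

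Signal was spread thinly over most genes and piled up in a few. Of the 1440 genes, 963 had a single 5′ UTR position, 992 had at most 2 counts and 79 had 10 counts or more. Satb1 alone held 5.88% of the counts, the 3 highest genes 11.2% and the 25 highest 23.8%. When positions at most 15 nt apart were joined, 2199 clusters resulted, of which 1872 were lone positions and 43, in 35 genes, held 10 counts or more and 19.6% of all 5′ UTR counts. Of the 25 highest genes, 22 had a 5′ UTR site, 14 had a 3′ UTR site, 10 had a position near TATTTA and 13 near TTTTTT. Since the 25 were ranked by this very count, their high 5′ UTR density is a description.

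**Figure D4:**
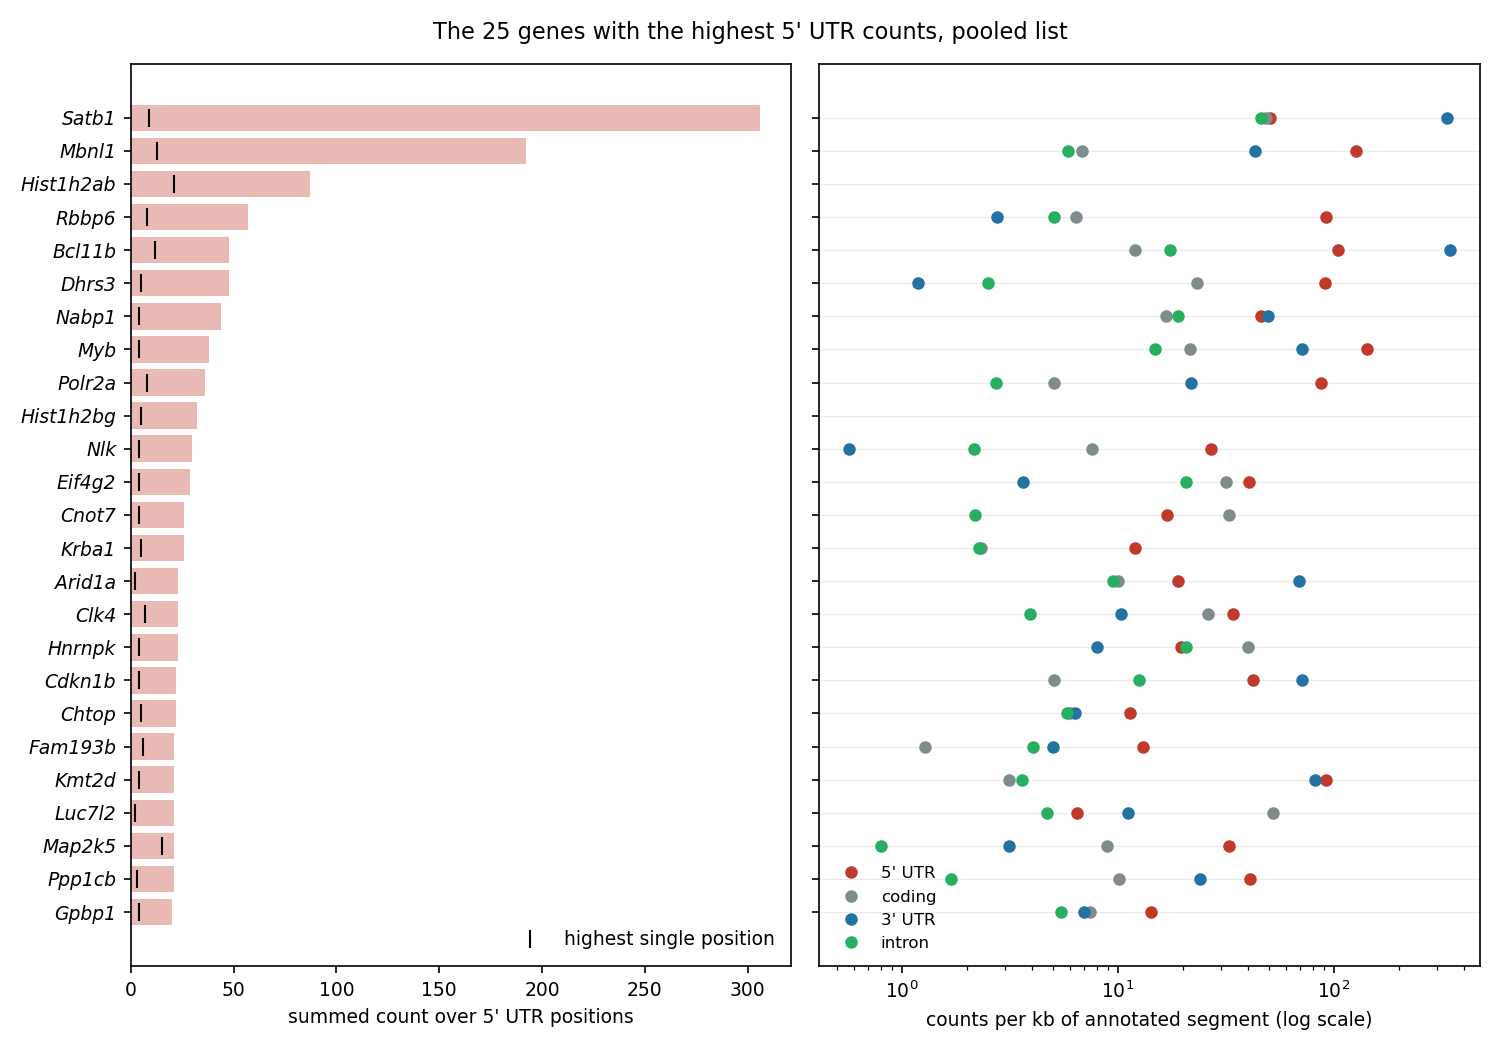
Left, summed 5′ UTR count of the 25 highest genes (bars) with their highest single position (black ticks). Right, counts per kb of annotated 5′ UTR, coding sequence, 3′ UTR and intron on a log axis, without segments at 0 and without Hist1h2ab and Hist1h2bg, whose annotated 5′ UTRs are only 7 and 37 nt long. Satb1 leads with 306 counts, at a 5′ UTR density next to that of its introns, 50.8 and 46.2 counts per kb.

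Satb1, which encodes a chromatin organiser needed for thymocyte development, had the most 5′ UTR positions, 173, with a summed count of 306 and 72 sites. Its highest position had 9 counts, the next 6, and 157 of the 173 had a count of 1 or 2. They formed 66 clusters over chr17:51809288-51831992, a span of 22705 nt, and fell in 6 of the gene's 8 annotated 5′ UTR exon blocks. All 173 also lay in an intron of another coding transcript of Satb1. The density was 50.8 counts per kb in the 5′ UTR, 46.2 in introns and 48.5 in coding sequence, and the ratio of 5′ UTR to intron was 1.10 (exact 95% interval 0.975 to 1.24). The 5′ UTR of Satb1 thus did not stand out from its introns beyond counting error, whereas its 3′ UTR had 334 counts per kb. Of the 173 positions 41 lay near TTTTTT and 8 near TATTTA.

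**Figure D5:**
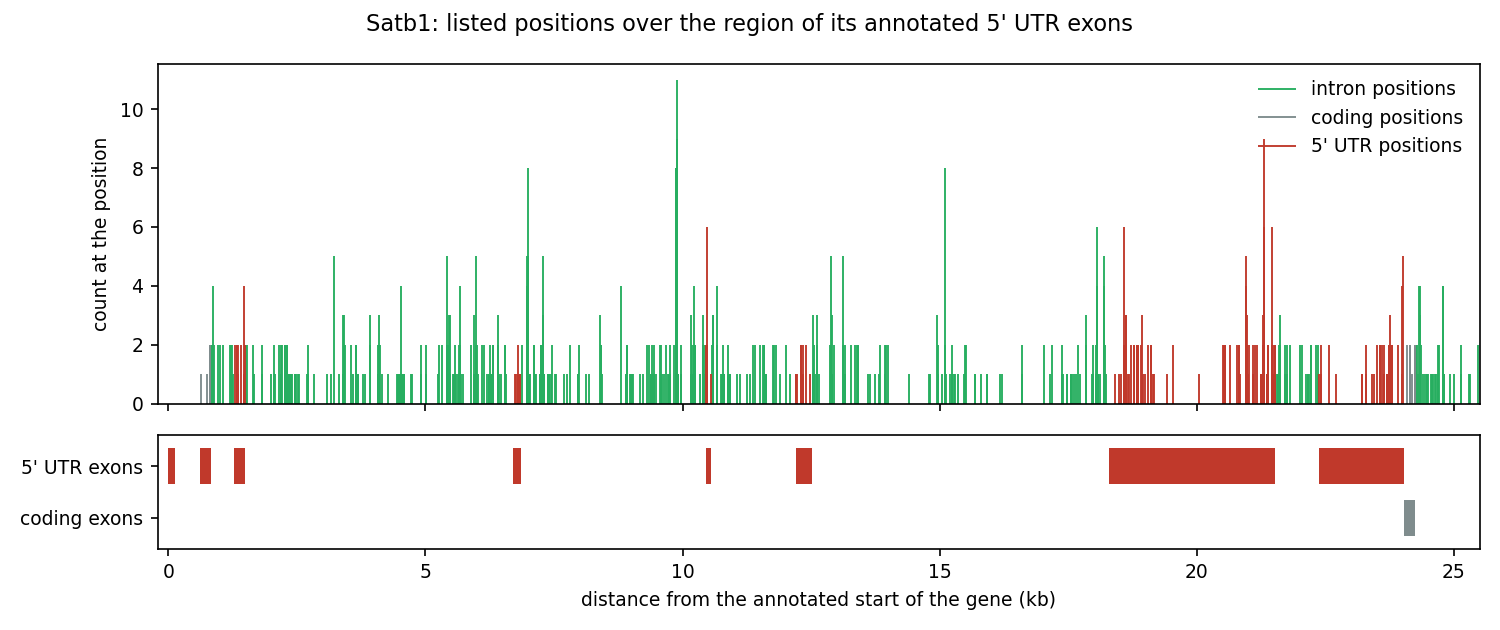
Count at each listed position of Satb1 (upper panel, coloured by the authors' segment label) and annotated 5′ UTR and coding exons (lower panel), by distance in kb from the annotated start of the gene. The 5′ UTR positions lie in 6 of 8 exon blocks, in between intron positions of like height, and the highest 5′ UTR position has 9 counts.

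Mbnl1, a regulator of alternative splicing, showed the opposite arrangement: 45 positions with 192 counts and 29 sites, of which 32 positions, 171 counts and all 29 sites lay in a single cluster at chr3:60529510-60529581. That cluster covers the T run printed above, and 33 of the 45 positions lay near TTTTTT and none near TATTTA. The 3 highest positions had 13 counts each. The 5′ UTR had 126 counts per kb, the 3′ UTR 43.1 and introns 5.88, a ratio of 5′ UTR to intron of 21.5 (exact 95% interval 18.2 to 25.1). The cluster also lies in an intron of other coding transcripts of Mbnl1, and all of it is soft-masked. The treatment of reads that fit several places in the genome is not stated in the labels.

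Of the 10 genes among the 25 with a position near TATTTA, the 4 whose windows are printed above had 21 to 27 counts there. Arid1a, a subunit of the BAF chromatin remodeller, followed with 15 of its 23 counts, at 8 of 14 positions, and no position above 2. Near TTTTTT it had 9 counts at 6 positions, and these overlap with the positions near TATTTA. Of the 14 positions of Arid1a, 13 also lay in an intron of another coding transcript. Map2k5, a kinase of the ERK5 pathway, had only 4 positions with 21 counts in all, and all 4 lay near TATTTA. A single position, chr9:63377384-63377384, held 15 of them, 127 nt before the start codon, and the hexamer began 15 nt downstream of it. Polr2a, the largest subunit of RNA polymerase II, had 19 positions with 36 counts, of which 9 positions with 21 counts lay near TATTTA. Its highest position had 8 counts and the next 2. Both genes had these positions in sequence that no other coding transcript places in an intron, and their 5′ UTR densities, 32.6 and 87.0 counts per kb, exceeded those of their introns, 0.806 and 2.73.

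Rbbp6, a ubiquitin ligase that binds RB, had 23 positions with 57 counts and 19 sites, and 21 of the positions lay in a cluster at chr7:122970784-122970885. Of its 2 positions with 8 counts, the hexamer began 28 nt beyond the former and stands in the printed window of the latter, and 8 positions with 27 counts lay near TATTTA. The 5′ UTR had 91.6 counts per kb and the introns 5.09, a ratio of 18.0 (exact 95% interval 12.9 to 24.8). Krba1, a gene with a KRAB-A domain, had 12 positions with 26 counts, of which 10 positions with 23 counts lay near the repeated hexamer printed above. Krba1 had no 3′ UTR position. All positions of Rbbp6 and Krba1 also lay in an intron of another coding transcript. Soft-masked positions made up 10 of 10 in the largest cluster of Krba1 and 8 of 8 in that of Arid1a. They were 3 of 21 in that of Rbbp6, 2 of 9 for Polr2a and 0 of 3 for Map2k5.

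The other printed genes with T runs had fewer counts there than the 174 of Mbnl1. Dhrs3, a retinaldehyde reductase, had 21 positions with 48 counts, 33 of these near TTTTTT and 10, at 4 positions, near TATTTA. Its 5′ UTR had 90.6 counts per kb against 1.19 in the 3′ UTR. Nabp1, a single-stranded DNA binding protein, had 24 positions with 44 counts, 35 of these near TTTTTT, and its 5′ UTR density of 45.9 per kb differed from that of its 3′ UTR, 49.8, by less than counting error (ratio 0.923, exact 95% interval 0.654 to 1.27). Kmt2d, a histone H3 lysine methyltransferase, had 9 positions with 21 counts, all sites and all near TTTTTT, at 13 nt from the transcript start for the highest. Cdkn1b, the cell cycle inhibitor p27, had 11 positions with 22 counts, 17 of these near TTTTTT, and 244 counts in its 3′ UTR. An intron of another coding transcript also held 20 of 21 positions of Dhrs3, 22 of 24 of Nabp1 and 10 of 11 of Cdkn1b. No position of Kmt2d lay in such an intron. In their largest clusters all 14 positions of Dhrs3 and all 9 of Kmt2d were soft-masked. For Nabp1 it was 15 of 17 and for Cdkn1b 8 of 9.

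Bcl11b and Myb, transcription factors of the T lineage, had no position near either pattern. The former, required for T cell commitment, had 16 positions with 48 counts and 11 sites, led by a position of 12 counts and another of 7, and 14 of them formed a cluster at chr12:108003375-108003420. Its 5′ UTR density was 105 counts per kb, above its introns (17.4) and below its 3′ UTR (344), where it had 1717 counts. Myb, a regulator of lymphoid progenitors, had 21 positions with 38 counts and 14 sites. No position of Myb exceeded 4 counts. The 5′ UTR of Myb had 143 counts per kb, against 71.1 in the 3′ UTR (ratio 2.01, exact 95% interval 1.34 to 2.97) and 14.8 in introns. All 14 positions in the cluster of Bcl11b and 10 of 15 in the largest cluster of Myb were soft-masked.

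Among histone genes, Hist1h2ab, which encodes a histone H2A, had 14 positions with 87 counts, including the highest of all 5′ UTR positions with 21. Of these 14, 13 positions with 85 counts lay 16 to 38 nt upstream of the annotated start of the gene. In the numbering used here, that start is chr13:23751126-23751126. The 13 positions thus fall outside the annotated 5′ UTR of 7 nt. Hist1h2bg, a histone H2B, had 13 positions with 32 counts in its 5′ UTR of 37 nt, the highest at 5 counts, and none was a site. Neither gene had a 3′ UTR position, and the 5′ UTR held 95.6% and 100% of their exonic counts. Histone genes of these clusters are near-identical copies, so the assignment of such reads to 1 copy is uncertain.

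The remaining genes among the 25 had 20 to 30 counts each. Cnot7, a catalytic subunit of the CCR4-NOT deadenylase, had 15 positions with 26 counts. Eif4g2, a translation initiation factor, had 16 with 29, at 40.3 counts per kb of 5′ UTR and 31.8 of coding sequence. Hnrnpk, an RNA-binding protein of splicing and translation, had 8 positions with 23 counts, all sites, at 19.6 counts per kb against 20.7 in its introns. Clk4, a kinase of SR splicing factors, had 11 with 23, 10 of them sites. Chtop, a factor of mRNA export, had 13 with 22, and Luc7l2, a protein of the U1 snRNP, 13 with 21 and no site. An intron of another coding transcript held all positions of Cnot7, Hnrnpk and Clk4, 13 of 16 of Eif4g2 and 12 of 13 of Chtop. For Luc7l2 only the 2 positions in an annotated 5′ UTR exon were assessed, and such an intron held them.

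Of the others, Nlk, a serine/threonine kinase, had 17 positions with 30 counts. Ppp1cb, a catalytic subunit of protein phosphatase 1, had 11 with 21 and no site, and Gpbp1, a promoter-binding factor, had 8 with 20. Fam193b had 8 with 21. Among the 25 genes, the 5′ UTR was denser than the introns in 22, than the coding sequence in 22 and than the 3′ UTR in 19, with segments without a listed position taken as 0 and no intron annotated in Hist1h2ab and Hist1h2bg.

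In a few genes nearly all exonic counts lay in the 5′ UTR. There were 608 genes with at least 20 exonic counts, in which the 5′ UTR held a median of 6.06%, and in 14 it held more than 50%. The 5 highest were Hist1h2bg and Pnck, at 100% each, Hist1h2ab, at 95.6%, Ptp4a3, at 87.0%, and Fam193b, at 80.8%. Pnck, a calmodulin-dependent kinase, had 7 positions with 20 counts within chrX:73659283-73659290, all sites, and no other listed position in the gene. All 7 also lay in an intron of another coding transcript of Pnck. Ptp4a3, a protein tyrosine phosphatase, had 13 positions with 20 counts, none above 2 and all in an intron of another coding transcript.

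Single positions with a high count were few. Of the 12 highest, with ties at 9 counts broken by gene name, 5 lay in the Mbnl1 cluster and 2 in Hist1h2ab, and Map2k5 and Bcl11b had 1 each. The other 3 were a position of 14 counts in Zfhx3, a transcription factor, with no other 5′ UTR position in that gene, a position of 10 counts in Fcho2, an endocytosis gene, also alone, and a position of 9 counts in Amy1, an amylase gene. Lone high positions and dense clusters thus both reached the top of the list.

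The gene lists of known function are given by their counts, beside the 11.5% of all protein-coding genes with a 5′ UTR position and the 1.13% with a 5′ UTR site. T lineage transcription factors had a 5′ UTR position in 24 of 34 listed members and a site in 7, led by Satb1, Bcl11b and Myb. Thymocyte markers had one in 10 of 19, none with a site, led by Tcf7 with 7 counts, Cd8a with 5 and Cd3e with 4. Genes of pre-TCR and TCR signalling had one in 17 of 44 and a site in 1, led by the adaptor Lat with 8 counts and then Cd3e and Grap2 with 4 each. Over all protein-coding genes the median 5′ UTR count was 0, and of all 20 lists only thymocyte markers (1), T lineage factors (2) and histone genes (2) had a median above 0. The amount of each transcript in the cells is not part of this list, and its share in these counts was not tested.

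Markers of other cell types occurred in the list, but seldom with a 5′ UTR position. B cell markers had a 5′ UTR position in 0 of 5 listed members, myeloid markers in 0 of 4, NK and innate lymphocyte markers in 0 of 4, thymic epithelial markers in 0 of 7 and stromal and endothelial markers in 0 of 4. Erythroid markers had one in 1 of 5, the globin Hbb-bt with 2 counts, named here because it was the only one. At a share of 11.5% over all protein-coding genes, lists this short would hold few members, so little can be read from these counts.

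Lists of genes known for control through the 5′ UTR were covered as follows. TOP mRNAs begin with a pyrimidine tract that governs their translation. Of those encoding ribosomal proteins, 22 of 78 had a 5′ UTR position and 5 a site, led by Rps20 with 11 counts, Rps16 with 6 and Rps2 with 6. Of a second TOP list, of translation factors with some other proteins, 6 of 21 had a position and none a site. It was led by Eef1a1, an elongation factor, with 8 counts. Of a list headed upstream open reading frames and start codon choice, 9 of 20 had a position and 3 a site. The mode of control of each member was not checked. The list was led by the apoptosis inhibitors Bcl2 with 12 counts and Xiap with 9, and by the initiation factor Eif1 with 4.

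Genes known for AU-rich elements are set beside a 3′ UTR position in 5752 of all 12541 protein-coding genes. Of AU-rich cytokine and immediate early genes, 5 of 32 had a 5′ UTR position, whereas 30 of 32 had a 3′ UTR position, and Ets2 led with 8 counts before Btg1 with 7. Of proteins that bind AU-rich elements, the ZFP36 family included, 6 of 20 had a 5′ UTR position and 18 a 3′ UTR position, led by Rc3h1 with 5 counts and Hnrnpd and Zfp36l2 with 4 each. Zfp36 and Zfp36l1 had no 5′ UTR position, and Zfp36l2 had 2, of 2 counts each and both sites, at rank 321. The 3′ UTR counts of Zfp36, Zfp36l1 and Zfp36l2 were 153, 235 and 147.

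In the remaining lists, splicing factors had a 5′ UTR position in 19 of 39 members and a site in 2, led by Hnrnpk, Luc7l2 and Srsf11 (11 counts). Cell cycle regulators had one in 9 of 37 and a site in 3, led by Cdkn1b, Ccnd3 (12 counts) and E2f2 (6 counts). Histone genes had one in 11 of 18 and a site in 2, led by Hist1h2ab, Hist1h1d (14 counts) and Hist1h2bc (8 counts). Genes of the actin and tubulin cytoskeleton had one in 7 of 19 and a site in 1, led by Actb (13 counts, against 1326 in its 3′ UTR), Pfn1 (5 counts) and Coro1a (4 counts). Oxidative phosphorylation genes had one in 6 of 36, led by Ndufb5 (4 counts), and genes of the DNA damage response and p53 in 4 of 34, both with no site and with shares next to that of all protein-coding genes.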

How the data were processed

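The authors deposited 1 table of crosslink positions, each with strand, segment label and gene name. Per the file headers, each position has a signed count, here treated as a score, a sum within 15 nt, a p-value, which was not used, and an FDR, which exceeds 1 at 77 of the 5′ UTR positions and is also treated as a score. The authors' deposited score within 15 nt was recomputed at 100% of positions. Bowtie and GRCm38 come from the submitters' processing notes, without a version, and the other steps are not given in the sources used here.

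Members, gene lists and named genes were chosen with earlier results of these data known. Positions were set against GENCODE vM21, of whose symbols 1379 of 1440 names matched a current and 41 an older one. Density is the summed count divided by annotated exon or intron length. Sequence came from the reference, within 20 nt on the transcribed strand. The genes named are the 25 with the highest summed 5′ UTR count, the 12 highest positions, up to 3 members per list with a sum of at least 3, the 5 with the highest 5′ UTR share of exonic counts, and Zfp36, Zfp36l1 and Zfp36l2. Ribosomal windows were matched with blastn 2.17.0, over at least 30 nt at 90% identity, against a reference set that holds only part of the ribosomal RNA. Analysis used Python 3.11.15, pandas 2.3.3, pysam 0.24.0 and samtools 1.23.1, and the scripts were tested on simulated data. Total counts per library are unknown. A planned test of WT against DCKO needs a column for each library and was not run. The alternatives were a stricter FDR, only sites, only counts of at least 3, GENCODE segments, basic transcripts, other windows and weights, and leaving out the highest genes. The sequence at 1 leading position is not reported here.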

Additional observations from a re-analysis of the deposited data

How the results depend on the processing

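No paired analysis was possible because the list has no column for a library, so leaving out each library and a replicate block were not run. Restricting positions to the GENCODE 5′ UTR adds nothing to the share inside it. Most changes come with fewer positions, and the cause of the others was not tested.

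With sites only, the 5′ UTR held 0.422% of counts in 142 genes, 93.7% of positions lay in a GENCODE 5′ UTR exon, 91.3% in a first exon, 3.94% within 30 nt of the start codon and 65.1% in an intron of another transcript. The median distance from the transcript start was 174 nt and the median G and C share 39.0%. TATTTA stood at 8.03%, TTTTTT at 38.0% and T at 64.0% of sites, and without Satb1 and Mbnl1 at 9.58% and 34.7%. The density ratios were 1.22 to coding sequence, 0.328 to 3′ UTR and 1.99 to intron, and the 20 highest genes held 55.0% of counts. In the lists, members with a site numbered 7 for T lineage factors, 5 for ribosomal TOP mRNAs, 3 each for upstream reading frames and cell cycle, 2 each for splicing factors and histones, 1 each for TCR signalling, AU-rich early genes, AU-rich binding proteins and cytoskeleton, and 0 for thymocyte markers, erythroid markers, TOP translation factors, DNA damage and oxidative phosphorylation.

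With counts of at least 3, the share of counts was 0.483% in 81 genes, and 93.0% lay in a first exon, 9.49% within 30 nt of the start codon and 58.2% in an intron of another transcript. The median distance was 186 nt and the G and C share 39.0%. TATTTA stood at 5.85%, TTTTTT at 31.0% and T at 64.3%, and 78.4% were sites. The density ratios were 1.45, 0.276 and 3.25 to coding sequence, 3′ UTR and intron, and the 20 highest genes held 69.2%.

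Without Satb1 the share of counts was 0.605%, the median distance 115 nt and the density ratio 1.03 to coding sequence and 2.69 to intron. Without Satb1 and Mbnl1, TTTTTT stood at 13.1% of positions, and 44.6% lay in an intron of another transcript. Weighted by counts, T stood at 49.2% and sites made up 28.8%, and weighted by positions the density ratio was 0.816 to 3′ UTR and 2.54 to intron. Windows of 10 nt gave TATTTA at 1.79% and TTTTTT at 11.4%, and windows of 50 nt at 6.05% and 19.8%. Within 50 nt of the start codon lay 20.8%. An FDR below 0.01 was met by 19.1%. With basic transcripts the median distance was 135 nt and 38.5% lay in an intron of another.

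The ratio of 5′ UTR to coding density, 1.08 in the genes with a 5′ UTR position, reversed to 0.439 over all protein-coding genes and to 0.715 with GENCODE segments. In the same genes it was 1.603 with GENCODE segments and 1.25 as the median over genes with at least 10 exonic counts. The ratio to 3′ UTR, 0.654, was 0.628 with GENCODE segments and 0.327 and 0.316 over all protein-coding genes. It reversed only as the median over 899 genes, to 1.13. Membership raises each of these medians over genes, since every gene has a 5′ UTR position. A gene without counts in the other segment entered with the highest ratio. The ratio to intron, 2.76, was 2.14 as the median over genes and 1.68 and 1.69 over all protein-coding genes. The remaining 32 alternatives stayed inside the counting interval of the main value or within 1.5 times the main count. Counts of 1 or 2 at most positions limit any statement on a single gene.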
